A study of Mus musculus with 6 samples.

Results

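The genes described here are 10 transcription factors of mesenchyme and of the epithelial-mesenchymal transition (EMT), the change in which epithelial cells lose their junctions and become motile. They were chosen by name: Prrx1, Prrx2 and Meox1 of the homeobox class, Twist1, Twist2 and Tcf21 of the basic helix-loop-helix (bHLH) class, and the zinc finger factors Snai1, Snai2, Zeb1 and Zeb2. Each was read by the only probe set that GEO's platform annotation pairs with that gene alone, so these are 10 of the 19938 genes that could be named. RNA came from 6 cultures of W4, a mouse line of embryonic stem cells, kept for 16 days in a neural differentiation medium with B27, N2 and bFGF. In 3 cultures valproate (VPA), an antiepileptic drug and histone deacetylase inhibitor, was present throughout at 300 uM, a concentration the labels call sub-toxic. The other 3 received phosphate-buffered saline (PBS), the solvent. The design text calls them biological replicates without saying how the cultures were separated, and all of them derive from a single cell line.

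Twist, Snail and Zeb factors are best known for switching off epithelial genes such as Cdh1 (E-cadherin), Snail and Zeb through the DNA sequence CACCTG, a form of the E-box. In the embryo the same factors serve in mesoderm and in the neural crest, which leaves the dorsal neural tube by an EMT. Prrx1 and Prrx2 act in limb and craniofacial mesenchyme, Tcf21 in the mesenchyme of kidney, lung and epicardium, and Meox1 in somites. Zeb1 and Zeb2 are in addition expressed in neural progenitors and neurons, and microRNAs of the miR-200 family restrain them.

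The culture label, which titles every sample as neurons, was checked against markers. All 12 neuronal genes examined lay above the background gauge in both groups, and 6 of 8 pluripotency genes lay below it in both. That gauge, 6.155 on the log2 scale, is the 95th percentile of 1027 olfactory receptor genes, which are mostly silent outside the nose. A group mean below it was not told apart from background. VPA replicate 1 stood somewhat apart: its median absolute difference from VPA replicates 2 and 3 was 0.125 and 0.132 over all genes, against 0.073 between those 2 arrays and 0.060 to 0.066 between PBS arrays.

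Windows upstream of 4 of the factors that rose with VPA are printed. Prrx2 and Zeb2 rose too, but their windows are not printed. Those windows held no letters of the kinds marked here, and neither did the printed windows of Twist1 and Twist2. The 4 printed windows show which carry letters that Snail, Zeb or homeodomain proteins can read. Each is the 250 bases before the annotated transcription start in RefSeq on build GRCm38.p6, printed 5′ to 3′ along the gene's strand. Capitals mark CACCTG on either strand (read as CAGGTG on the other) and TAATTA, the core read by homeodomains.
Prrx1, chr1:163313651-163313900 (- strand): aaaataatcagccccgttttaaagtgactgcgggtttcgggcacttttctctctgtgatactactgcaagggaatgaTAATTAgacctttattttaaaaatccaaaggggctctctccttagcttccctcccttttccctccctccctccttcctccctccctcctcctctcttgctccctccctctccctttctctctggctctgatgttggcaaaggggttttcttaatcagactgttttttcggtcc
Twist1, chr12:33957421-33957670 (+ strand): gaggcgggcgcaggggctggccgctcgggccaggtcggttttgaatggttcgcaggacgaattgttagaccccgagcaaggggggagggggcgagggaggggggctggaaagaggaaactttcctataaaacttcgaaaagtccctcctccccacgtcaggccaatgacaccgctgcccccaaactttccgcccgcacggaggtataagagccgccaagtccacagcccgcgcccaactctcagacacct
Twist2, chr1:91801211-91801460 (+ strand): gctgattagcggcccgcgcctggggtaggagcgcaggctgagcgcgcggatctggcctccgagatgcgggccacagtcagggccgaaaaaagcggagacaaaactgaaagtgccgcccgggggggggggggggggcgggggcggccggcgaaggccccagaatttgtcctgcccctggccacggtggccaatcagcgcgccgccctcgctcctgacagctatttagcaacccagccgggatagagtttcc
Snai1, chr2:167537945-167538194 (+ strand): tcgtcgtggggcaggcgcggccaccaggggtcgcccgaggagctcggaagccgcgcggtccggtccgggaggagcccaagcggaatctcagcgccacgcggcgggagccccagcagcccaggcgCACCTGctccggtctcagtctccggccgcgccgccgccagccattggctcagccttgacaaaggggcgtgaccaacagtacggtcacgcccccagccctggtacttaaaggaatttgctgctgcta

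The Prrx1 window held TAATTA, beginning 173 bases before the start, as did 4.84% of 32851 RefSeq windows of the same length. The Snai1 window held CACCTG, beginning 126 bases before the start, as did 17.2% of all windows. Windows on the chromosome that carries Zeb1 were left out for the factors and the lists, but not from the shares over all genes. Snai2 and Meox1 had no RefSeq window. Windows thus remained for 7 of the 10 genes, 10 windows in all since Zeb2 has several starts. Of these 7 genes Snai1 alone had an E-box of any kind (CANNTG, which is its own reverse complement and includes CACCTG), against 69.3% of 27025 genes with a window. GC content in the windows ranged from 47.6% for Prrx1 to 70.0% for Prrx2 and Snai1, around a median of 52.4% over all windows, and CpG counts ranged from 4 for Prrx1 to 27 for Snai1, around a median of 6.0. A match is a string of letters and no evidence of binding.

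With VPA, 8 of the 10 factors rose and 0 fell at an adjusted p under 0.05 (limma, Benjamini-Hochberg over all 19938 genes), where 13.6% of all genes rose, 15.7% fell and 29.2% changed in either direction. At an unadjusted p under 0.05 the counts were 9 and 0. The 8 include Meox1, which lay below the background gauge on all 6 arrays and lost its call with the replicate number as a block, which left 7. The largest measured rises were those of Prrx1, Snai2, Twist1 and Twist2. The rise of Snai2 starts from a PBS level in the background range, so its place in that order is not settled. Prrx2, Zeb2 and Snai1 rose by less. The median change was 0.48 on the log2 scale over the 10 genes and 0.0013 over all genes. The arrays of the groups did not overlap for 9 of the 10, each higher with VPA, against 20.2% of all genes (23.8% were lower without overlap, and 44.0% separated either way). Meox1 and Tcf21, both in the background range, are among these 9. In a bulk sample, more cells of a type cannot be told apart from more RNA per cell.

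**Figure D1:**
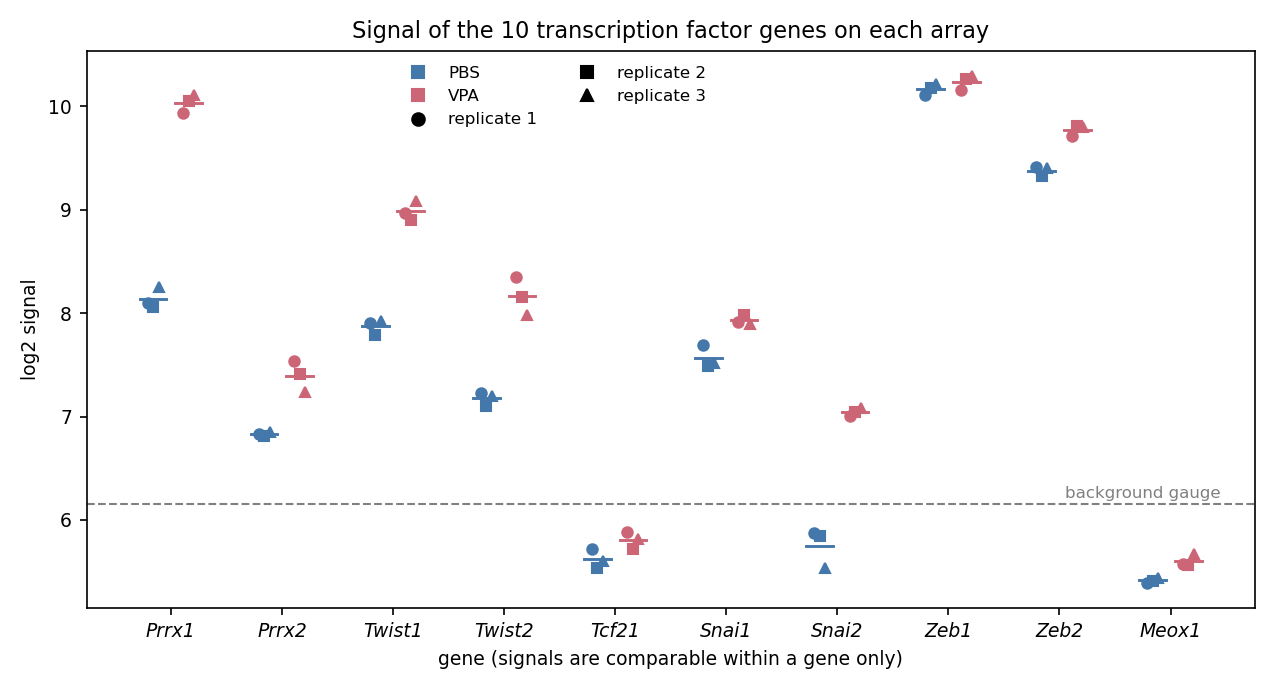
Deposited log2 signal of each of the 10 genes (x axis) on every array. Circles, squares and triangles are replicates 1, 2 and 3, horizontal bars are group means (n = 3), and the dashed line is the background gauge of 6.155; Tcf21 and Meox1 lie below it in both groups and Snai2 with PBS, and only Zeb1 overlaps between groups.

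Prrx1 encodes a paired-related homeobox protein of limb, craniofacial and fibroblast precursors. Its log2 signal was 8.10, 8.06 and 8.25 on the PBS arrays and 9.94, 10.06 and 10.11 on the VPA arrays. The lowest VPA array thus lay far above the highest PBS array, and arrays within a group stayed close together. The rise was 1.90 (SE 0.07, adjusted p = 1.19e-06), or 3.73-fold, the 35th largest of all 19938 genes. Its paralogue Prrx2, whose product acts redundantly with that of Prrx1 in the limb and face, gave 6.83, 6.81 and 6.85 with PBS and 7.54, 7.41 and 7.24 with VPA. Here VPA replicate 1 was the highest, by 0.21 over the mean of the other VPA arrays, whereas for Prrx1 it was the lowest VPA array. Prrx2 rose by 0.56 (SE 0.08, adjusted p = 0.000777).

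Meox1, a homeobox gene of somites, read 5.39, 5.41 and 5.44 with PBS and 5.58, 5.56 and 5.67 with VPA. All 6 values lay below the background gauge, so that expression of this gene was not told apart from background in either group. The measured difference of 0.19 (SE 0.06) passed at an adjusted p of 0.0347. That call was lost with the replicate number as a block (adjusted p = 0.0618), with trended and robust variances (adjusted p = 0.0554), and without any 1 of PBS replicates 1 to 3, VPA replicate 2 or VPA replicate 3, where the adjusted p was 0.117, 0.114, 0.0856, 0.0556 and 0.101.

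Twist1 encodes a bHLH factor of head mesenchyme and mesoderm. On the PBS arrays its signal was 7.90, 7.79 and 7.92, and on the VPA arrays it was 8.97, 8.91 and 9.09. The groups were separated by nearly a full log2 unit. Twist1 rose by 1.12 (SE 0.07, adjusted p = 8.76e-06), or 2.17-fold. Twist2, its close paralogue, expressed in dermis and bone precursors, measured 7.23, 7.10 and 7.20 with PBS and 8.35, 8.16 and 7.98 with VPA. Its VPA arrays spread more widely than those of Twist1, with VPA replicate 1 again at the top, 0.28 over the mean of the other VPA arrays. The rise of Twist2 was 0.99 (SE 0.09, adjusted p = 8.03e-05).

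Tcf21, the third bHLH gene, is needed for kidney, lung and epicardial mesenchyme. It measured 5.72, 5.53 and 5.61 with PBS and 5.88, 5.72 and 5.81 with VPA. The groups touched without overlapping, and every value lay below the background gauge. The difference of 0.19 (SE 0.07) did not pass (adjusted p = 0.0772).

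Snai2 (Slug), the Snail factor of migrating neural crest in many vertebrates, read 5.87, 5.85 and 5.54 with PBS and 7.004, 7.05 and 7.09 with VPA. Its PBS arrays were all below the background gauge and its VPA arrays all above it. The measured rise was 1.29 (SE 0.09, adjusted p = 1.70e-05), from a PBS mean of 5.75 that was not told apart from background. Snai1, the founding EMT repressor, which is required for mouse gastrulation, gave 7.69, 7.49 and 7.52 with PBS and 7.91, 7.99 and 7.89 with VPA. PBS replicate 1 came closest to the VPA group. Snai1 rose by 0.36 (SE 0.07, adjusted p = 0.00425).

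Zeb2, a zinc finger homeobox factor of neural crest and of developing neurons, measured 9.41, 9.32 and 9.40 with PBS and 9.71, 9.81 and 9.80 with VPA. Arrays within each group lay within 0.1 of each other and the groups were clearly apart. Zeb2 rose by 0.40 (SE 0.06, adjusted p = 0.00106). Zeb1, whose product keeps neural progenitors undifferentiated, read 10.11, 10.18 and 10.22 with PBS and 10.16, 10.26 and 10.29 with VPA. The groups overlapped. The difference of 0.07 (95% confidence interval -0.07 to 0.21, adjusted p = 0.447) did not pass.

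**Figure D2:**
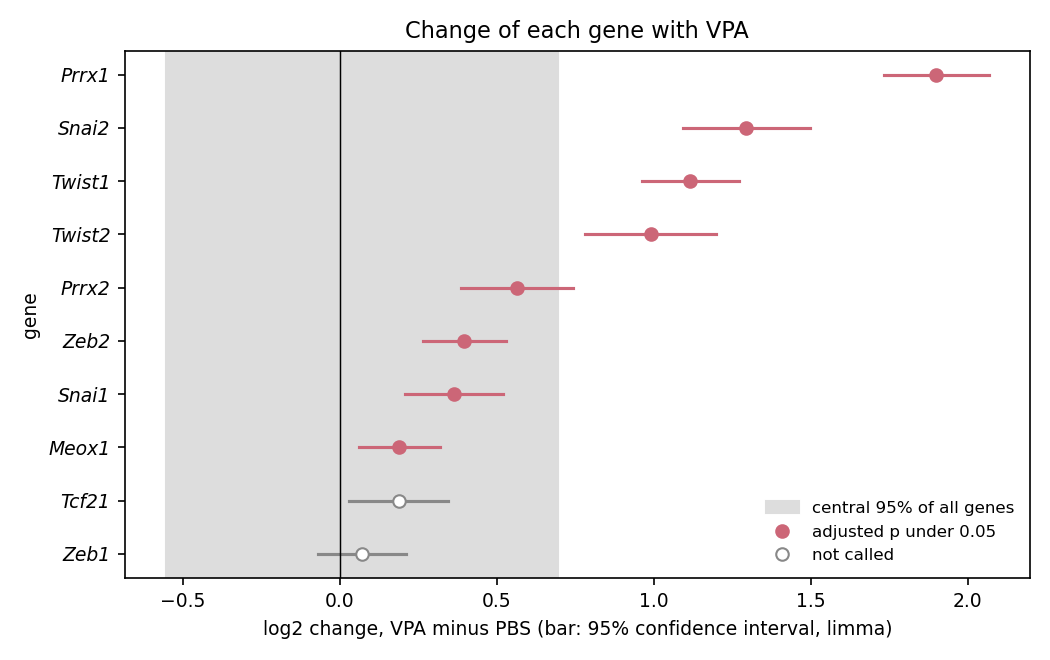
Log2 change, VPA minus PBS, of the 10 genes with 95% confidence intervals from limma (3 arrays per group). The grey band spans the central 95% of the changes of all 19938 genes, -0.55 to 0.69; Prrx1, Snai2, Twist1 and Twist2 lie above the band.

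Within families the measured changes differed in size, which the test below could not settle. The difference between paralogues was formed within each array and compared between groups by a two-sided exact permutation test, which cannot give a p below 0.1 with 3 arrays against 3. Prrx1 rose by 1.34 more than Prrx2 (95% interval from the pooled spread of the arrays 0.93 to 1.74, exact p = 0.1, 0.133 after adjustment over the 4 pairs). Snai2 exceeded Snai1 by 0.93 (interval 0.64 to 1.22, exact p = 0.1, adjusted 0.133), a measured gap that starts from a Snai2 level in the background range. Zeb2 exceeded Zeb1 by 0.33 (interval 0.19 to 0.46, exact p = 0.1, adjusted 0.133). In these 3 pairs the arrays of the groups did not overlap and p was the smallest this test can give. The changes of Twist1 and Twist2 differed by 0.13 (interval -0.28 to 0.53, exact p = 0.7), which leaves room for a difference of either sign.

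**Figure D3:**
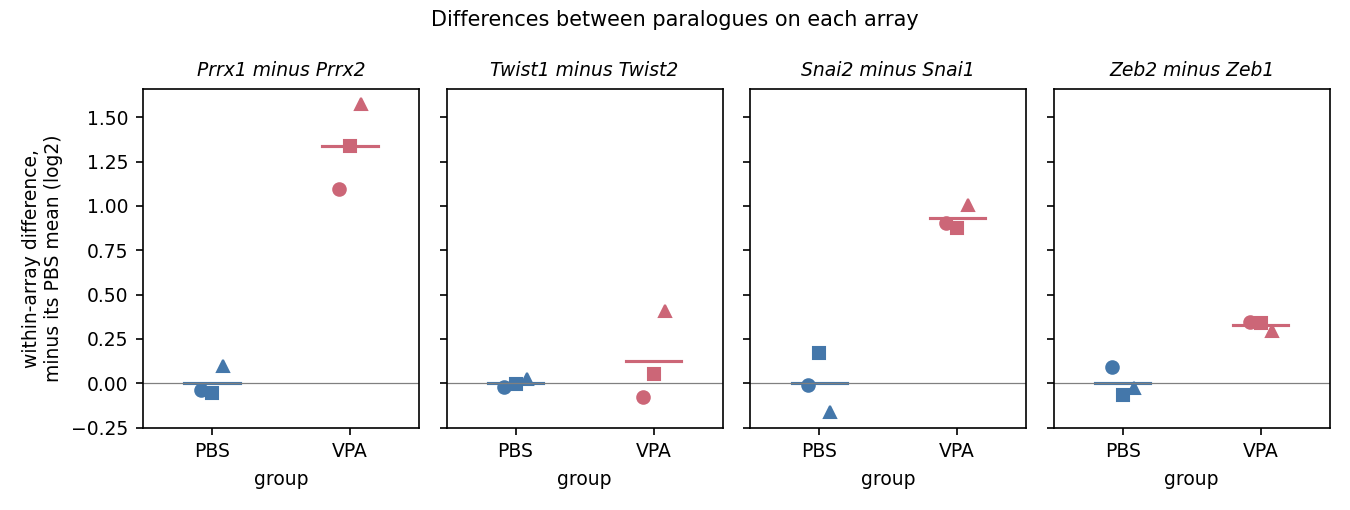
Within-array log2 difference between paralogues, minus the mean of that difference over the PBS arrays, for 4 pairs. Circles, squares and triangles are replicates 1, 2 and 3 and horizontal bars are group means (n = 3); the VPA arrays are shifted upward without overlap for Prrx, Snai and Zeb pairs, while the Twist pair overlaps around 0.

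The genes whose profiles lay nearest to the 3 factors with the largest changes were sought by Euclidean distance over the 6 arrays after subtracting each gene's mean. Nearest to Prrx1 were Fibin (distance 0.21, rise 1.85), S100a10 (0.22, rise 1.96), which encodes a partner of annexin A2, and the growth factor gene Igf2 (0.22, rise 1.87). Nearest to Snai2 were the chromatin protein gene Hmga2 (0.24, rise 1.41), Tmem119 (0.25, rise 1.24) and the Wnt receptor gene Fzd4 (0.27, rise 1.17). Nearest to Twist1 were Colec12 (0.022, rise 1.11), a scavenger receptor gene, the RNA sensor gene Ddx58 (0.14, rise 1.07) and Fignl1 (0.14, rise 1.04). Among the other 9 factors the nearest to Twist1 was Twist2, at a distance of 0.39, and the nearest to Prrx1 was Snai2, at 0.85. The PBS means of Fibin and Fzd4 lay below the background gauge. The 6 arrays fall into 2 groups, so genes with a like group difference lie close by construction.

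Further mesenchymal transcription factors were examined from a list that excludes the 10. Of 25 measured, 14 rose and 1 fell, with a median change of 0.27, where 13.6% of all genes rose and 15.7% fell. Osr1, an odd-skipped factor of intermediate and lateral mesoderm, measured 6.26, 6.40 and 6.49 with PBS and 8.73, 8.58 and 8.70 with VPA. Its rise of 2.29 (SE 0.07, adjusted p = 6.71e-07) exceeded that of Prrx1. Tbx15, a T-box gene of skeletal and dermal mesenchyme, rose by 1.55 (SE 0.08), the kidney stroma gene Foxd1 by 1.12 (SE 0.12) and Osr2 by 0.92 (SE 0.09), the PBS mean of Osr2 lying below the background gauge. The member that fell was Shox2, named after its values were seen, with a change of -0.32.

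Mesenchymal effector genes were set beside the factors because many are used as EMT readouts. Of 22 measured, 16 rose and 2 fell, where 13.6% of all genes rose and 15.7% fell, and their median change was 1.05. Postn (periostin) rose by 2.66 (SE 0.13) and Acta2, the smooth muscle actin of myofibroblasts, by 1.84 (SE 0.14). Col3a1, a fibrillar collagen, rose by 1.59 (SE 0.08), and Pdgfra, the growth factor receptor of mesenchymal precursors, by 1.54 (SE 0.07). The textbook pair Vim and Cdh2 did not rise with them. Vim (vimentin), an intermediate filament gene that neural progenitors express as well, measured 13.09, 13.09 and 13.10 with PBS and 13.02, 13.05 and 13.03 with VPA. Its change was -0.06 (SE 0.05, adjusted p = 0.429). Cdh2 (N-cadherin), also a cadherin of neural cells, measured 11.36, 11.32 and 11.38 with PBS and 11.11, 11.14 and 11.16 with VPA. It fell by 0.22 (SE 0.05, adjusted p = 0.0152). Tnc (tenascin C), the other effector that fell, changed by -0.28 (SE 0.06). Without PBS replicate 1 or without PBS replicate 3 the count of effectors that fell was 1. It was also 1 with quantile normalization, and at an adjusted p under 0.01, where Tnc passed (limma, adjusted p = 0.00646) and Cdh2 did not.

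Epithelial genes, the classical targets of repression, were read next. Of 23 measured, 5 rose, 3 fell and 15 did not pass, with a median change of 0.05. Over all genes 13.6% rose and 15.7% fell, and counts this close to those shares are no result about epithelial genes. Cdh1 measured 7.44, 7.15 and 7.32 with PBS and 7.08, 7.09 and 6.93 with VPA, a narrow separation. It fell by 0.27 (SE 0.08, adjusted p = 0.0396). The tight junction gene Ocln fell by 0.60 (SE 0.07), to a VPA mean below the background gauge, and Mal2, a membrane traffic gene that neurons express too, by 0.97 (SE 0.14). The simple epithelial keratin genes Krt8 and Krt19 rose by 0.56 (SE 0.09) and 0.53 (SE 0.10), Krt19 from a PBS mean below the gauge. Epcam, which encodes an epithelial adhesion molecule, changed by 0.05 (SE 0.06, adjusted p = 0.591). Without PBS replicate 1 the count of epithelial genes that rose was 3. The count that fell was 2 when PBS replicate 1, PBS replicate 3, VPA replicate 2 or VPA replicate 3 alone was left out. Of the 3 that fell with all arrays, Cdh1 had the largest adjusted p in limma, against 0.000245 for Ocln and 0.00112 for Mal2.

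The CACCTG box was frequent upstream of the epithelial genes. Here too, windows on the chromosome that carries Zeb1 were left out of the lists but kept among all genes. Cdh1 had no RefSeq window and was not searched. Of 15 epithelial genes with a remaining RefSeq window, 10 held the box, against 19.4% of all genes with a window. Of 12 mesenchymal effector genes with a remaining window, 0 held it. Of the 10 genes holding it 2 rose, 1 fell and 7 did not pass (median change 0.028). Of the 5 without it 1 rose and 4 did not pass (median 0.0028). With 13.6% of all genes rising and 15.7% falling, these counts say nothing of what the box does. The windows of a gene that fell (Ocln), a gene that did not pass (Epcam) and a gene that rose (Krt8) show that the same letters accompany each outcome. Capitals mark CACCTG or CAGGTG, and coordinates are on GRCm38.p6.
Ocln, chr13:100552499-100552748 (- strand): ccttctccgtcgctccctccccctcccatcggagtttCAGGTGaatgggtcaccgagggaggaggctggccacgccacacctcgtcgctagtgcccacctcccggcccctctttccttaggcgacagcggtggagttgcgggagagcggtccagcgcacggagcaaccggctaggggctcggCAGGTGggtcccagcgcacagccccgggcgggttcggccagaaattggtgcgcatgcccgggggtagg
Epcam, chr17:87635729-87635978 (+ strand): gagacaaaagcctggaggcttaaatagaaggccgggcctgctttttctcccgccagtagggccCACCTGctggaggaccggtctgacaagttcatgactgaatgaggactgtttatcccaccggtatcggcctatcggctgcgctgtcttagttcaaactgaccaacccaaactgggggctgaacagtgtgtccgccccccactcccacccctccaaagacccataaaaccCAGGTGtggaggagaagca
Krt8, chr15:102004343-102004592 (- strand): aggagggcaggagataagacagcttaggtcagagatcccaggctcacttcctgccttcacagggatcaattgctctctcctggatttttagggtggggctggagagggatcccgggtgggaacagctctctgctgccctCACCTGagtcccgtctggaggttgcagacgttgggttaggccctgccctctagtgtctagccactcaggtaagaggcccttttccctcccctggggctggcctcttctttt

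Of 15 measured epithelial regulators that oppose EMT, 2 rose and 1 fell, where 13.6% of all genes rose and 15.7% fell, so these counts do not set the list apart. Klf5 and Klf4, Krüppel-like factors, rose by 0.25 (SE 0.06) and 0.21 (SE 0.05), Klf4 from a PBS mean below the background gauge, and Grhl3, a grainyhead factor of surface epithelium, changed by -0.19 (SE 0.06). Of the 15 genes, 8 lay below the background gauge in both groups. Without VPA replicate 1, 5 of the 15 rose, but so did more of all 19938 genes, 3949 against 2702 with every array.

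The miR-200 family, which base-pairs with Zeb1 and Zeb2 transcripts through its seed (bases 2 to 8, in capitals), falls into seed groups that differ at a single base. The mature sequences from RefSeq are shown to make that grouping visible.
miR-200a-3p: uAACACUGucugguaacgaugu
miR-141-3p: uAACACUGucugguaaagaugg
miR-200b-3p: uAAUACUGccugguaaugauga
miR-200c-3p: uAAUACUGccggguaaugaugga
miR-429-3p: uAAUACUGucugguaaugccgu
The first 2 share the seed AACACUG and the other 3 share AAUACUG. The array reads the gene's transcript and not the mature microRNA. The probe sets of Mir200a, Mir200b, Mir200c and Mir141 changed by 0.16, 0.12, 0.33 and 0.10, and none of these 4 passed (adjusted p = 0.371, 0.320, 0.0554 and 0.490). Both group means of Mir200b, Mir200c and Mir141 lay below the background gauge.

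Genes reported in the literature downstream of single factors were few and mixed. Dnm3os, a non-coding transcript reported as a Twist1 target and host of miR-199a and miR-214, measured 5.83, 5.86 and 6.03 with PBS and 7.99, 7.76 and 7.87 with VPA. It rose by 1.97 (SE 0.08, adjusted p = 1.40e-06) from a PBS mean below the background gauge. It lies antisense within Dnm3. The microRNAs it carries are shown with their seeds in capitals, as products of this transcript that were not themselves measured here.
miR-199a-5p: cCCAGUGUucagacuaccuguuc
miR-199a-3p: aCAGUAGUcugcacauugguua
miR-214-3p: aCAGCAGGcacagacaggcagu
Of the 6 measured genes of this list 2 rose, Dnm3os and Pdgfra, and 2 fell, Tnc, a reported Prrx1 target, and Cdh1. Over all genes 13.6% rose and 15.7% fell. Nkx3-2, a sclerotome gene reported downstream of Meox1, had a change of -0.0002 (adjusted p = 0.998).

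Twist and Tcf21 proteins bind DNA as dimers with E proteins, and Id proteins sequester those partners. Of 7 such genes 4 rose and 1 fell, where 13.6% of all genes rose and 15.7% fell. Tcf12, an E protein gene, rose by 0.45 (SE 0.05). Id1 and Id3 rose by 0.91 (SE 0.11) and 0.79 (SE 0.18), and Id4, which is abundant in neural progenitors, fell by 0.85 (SE 0.08). The Id family therefore did not move in a single direction.

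Among 17 corepressors and stability regulators of Snail and Zeb proteins 6 rose and 1 fell, with a median of 0.03. Over all genes 13.6% rose and 15.7% fell. Loxl3, a lysyl oxidase that acts on Snail, rose by 0.51 (SE 0.07), Rcor1 by 0.28 (SE 0.05) and Limd1 by 0.26 (SE 0.06). Hdac1, a histone deacetylase that Snail recruits, rose by 0.36 (SE 0.06, adjusted p = 0.00232), while Hdac2 changed by -0.175 (SE 0.07, adjusted p = 0.116). Without VPA replicate 1, 2 of the 17 fell, but so did more of all 19938 genes, 4224 against 3123 with every array.

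TGF-beta and BMP ligands are the best studied inducers of these factors. Of 12 ligand, receptor and Smad genes 10 rose and 0 fell, with a median of 0.71, where 13.6% of all genes rose and 15.7% fell. Tgfb3 rose by 1.48 (SE 0.09), the receptor genes Tgfbr2 and Tgfbr3 by 1.28 (SE 0.08) and 1.10 (SE 0.11), and Bmp7 by 0.82 (SE 0.11).

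**Figure D4:**
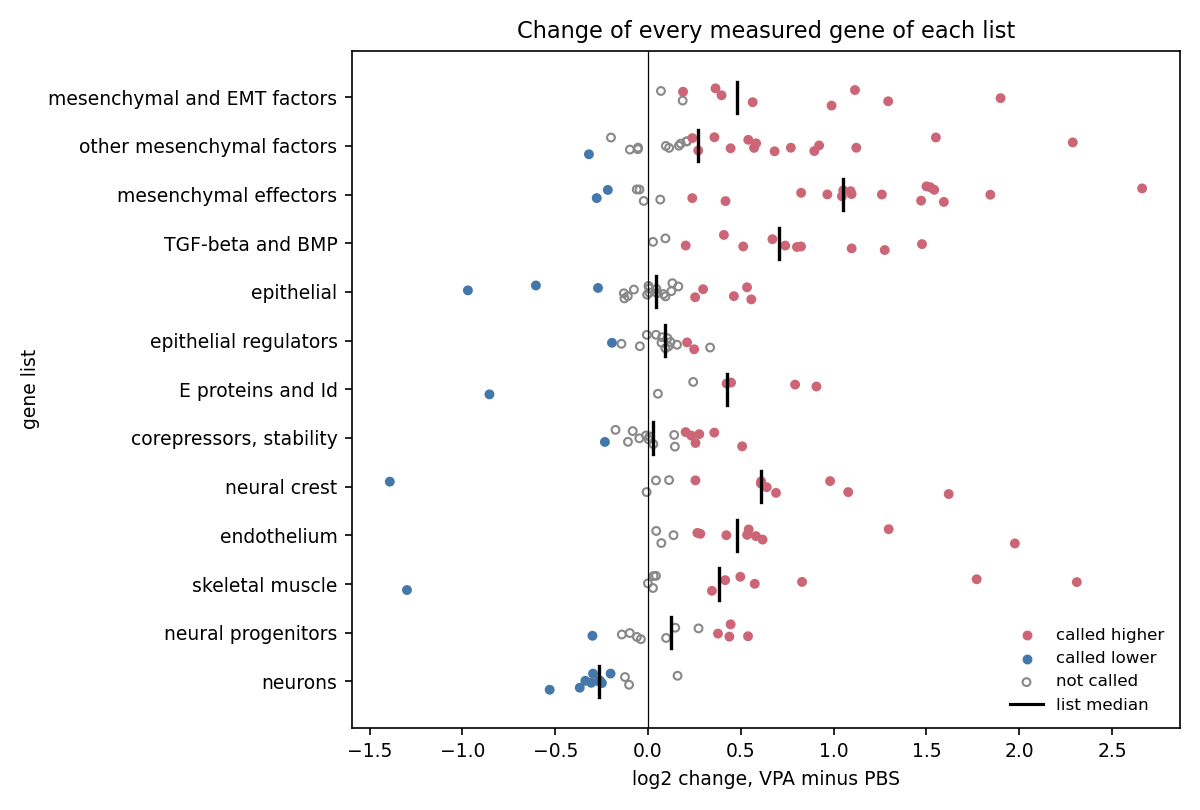
Log2 change, VPA minus PBS, of every measured gene (points) of the 10 factors and of 12 other lists, with list medians as vertical bars. Filled points passed an adjusted p of 0.05; the medians were 1.05 for mesenchymal effectors, 0.05 for epithelial genes and -0.26 for neurons.

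Several cell types can express these factors, and markers of each were read. Over all genes 13.6% rose and 15.7% fell with VPA. Of 12 neural crest genes 8 rose and 1 fell, their mean log2 signal being 8.24 to 8.28 on PBS arrays and 8.63 to 8.79 on VPA arrays. Erbb3, a receptor of crest and Schwann cells, rose by 1.62, Ngfr by 1.08 and Foxd3 by 0.98, while Tfap2b, which the dorsal midbrain also expresses, changed by -1.39. Of 12 endothelial genes 9 rose and 0 fell (list mean 6.22 to 6.30 with PBS and 6.77 to 6.90 with VPA), including Cdh5, the vessel cadherin, at 1.98 and Emcn at 1.30, both from PBS means below the background gauge.

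Beside the counts that follow, 13.6% of all genes rose and 15.7% fell. Of 12 skeletal muscle genes 7 rose and 1 fell (list mean 6.41 to 6.47 with PBS and 6.84 to 7.02 with VPA). Myl1 and Myh3, muscle myosin genes, rose by 2.31 and 1.77 and Des by 0.83, all from PBS means below the gauge, and Pax7 changed by -1.30. Of 11 somite and sclerotome genes 3 rose and 1 fell (6.84 to 6.90 and 7.01 to 7.09). Meox2, the paralogue of Meox1, rose by 1.18 (SE 0.10), Foxc2 by 0.77 and Tcf15 by 0.24, and Uncx changed by -0.38; the PBS means of Meox2 and Foxc2 lay below the gauge. Of 11 epicardial and kidney stromal genes, the tissues of Tcf21, 5 rose and 0 fell (6.13 to 6.18 and 6.65 to 6.71). Besides Osr1 and Foxd1 these included Aldh1a2, a retinoic acid synthesis gene, at 0.95, from a PBS mean below the gauge, and Gata6 at 0.53.

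The next counts stand beside shares of 13.6% rising and 15.7% falling over all genes. Of 12 neural progenitor genes 4 rose and 1 fell (list mean 9.56 to 9.63 with PBS and 9.69 to 9.83 with VPA), with Pax6 at 0.54, Hes1 at 0.45, Prom1 at 0.44 and Nes (nestin) at 0.38. The gene that fell was Sox1, named after its values were seen, with a change of -0.30 (SE 0.08, adjusted p = 0.0237), and 7 did not pass. Without VPA replicate 1, 2 of these 12 fell, but so did more of all 19938 genes, 4224 against 3123 with every array. Of 12 neuronal genes 9 fell and 0 rose (11.03 to 11.10 and 10.79 to 10.83; at an unadjusted p under 0.05, 9 fell and 1 rose), with Mapt at -0.53, Dcx at -0.37, Gap43 at -0.34, Elavl3 at -0.31 and Tubb3 at -0.27. Of 8 pluripotency genes 0 passed in limma, 0 had an unadjusted p under 0.05, and 0 passed without VPA replicate 1. Nanog changed by 0.19 (adjusted p = 0.217), Lin28a by 0.08 (adjusted p = 0.362) and Pou5f1 by -0.02 (adjusted p = 0.910). For the TGF-beta, endothelial and epicardial lists the count of genes that fell was also 0 at an unadjusted p under 0.05. How far each of these cell types accounts for the rise of the factors was not tested.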

How the data were processed

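RNA was hybridised to Affymetrix whole transcript arrays as biotin-labelled sense-strand DNA, per the labels' protocols. The values are log2 signals per probe set, normalized between arrays by the authors before they were deposited; base 2 was inferred from their range (2.50 to 13.89). The submitters' processing notes name Partek 6.5 and mm9 without a role; the normalization method is not given in the sources used here. For arrays, their number limits the precision.

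Of 35556 probe sets, 21789 carried exactly 1 symbol, 1621 several and 12146 none. Symbols were updated by Entrez ID through RefSeq's GRCm38.p6 gene table (21698 matched). The brightest probe set stood for each of 19938 genes. VPA and PBS were compared with limma 3.58.1 in R 4.3.3 (lmFit, eBayes, no covariates, 3 arrays per group), checked on simulated data. The p-values measure the spread between these arrays only.

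The 10 genes, 17 lists (227 of 238 entries measured) and tests were chosen with earlier results of these data known. All 10 factors are named; from each list up to 4 genes past the threshold with the largest change and non-overlapping groups are named, otherwise the 2 lowest by p, plus Cdh1, Cdh2, Vim, Epcam, Hdac1, Hdac2, Tubb3 and Pou5f1. List counts without VPA replicate 1 were partly added after seeing the data. Alternatives were other scaling, filters on dim genes, variance models, weighting of arrays, a block on replicate number, a stricter threshold, the mean of probe sets and leaving out each array.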

Additional observations from a re-analysis of the deposited data

How the results depend on the processing

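The changes of Prrx1, Prrx2, Twist1, Twist2, Snai1, Snai2 and Zeb2 kept their direction and passed under every alternative in which they were tested, and Tcf21 and Zeb1 passed under none; Meox1 is given above. With genes below the 50th percentile of mean level left out, 5 of the 6 factors still tested rose, 2 of 4 other mesenchymal factors rose and 0 of 2 epithelial genes fell, fewer genes being tested. Of all genes, 5825 passed, against 3731 without moderation of the variances, 8917 with array weights and 3370 at an adjusted p under 0.01. Leaving out 1 array gave 3836 (without PBS replicate 2) to 8173 (without VPA replicate 1), and 7 to 8 factors rose, while 0 fell. Leaving out 1 array also gave 15 to 16 effectors and 13 to 15 other mesenchymal factors that rose, and 2 to 3 epithelial genes that fell. The difference between the changes of Twist1 and Twist2 was -0.014 without VPA replicate 3 and ranged from -0.014 to 0.23 when 1 array was left out. With the replicate number as a block, 7 factors rose and 5410 genes passed. Deviations of same-numbered arrays correlated at -0.02, -0.008 and 0.02. No pairing by replicate number was seen, though such values cannot settle whether the cultures were paired. Low signal limits Tcf21, Meox1 and, with PBS, Snai2.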

Other observations

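The genes next to the 10 factors on the chromosome were read for comparison, a choice made after their values were seen. Of 20 nearest named genes on the array, by the order of RefSeq's GRCm38.p6 gene table, 4 rose, 3 fell and 13 did not pass, with a median change of 0.029; over all genes 13.6% rose and 15.7% fell. Of the 4 that rose, Gm10824 beside Tcf21 and A630010A05Rik beside Snai2 lay below the background gauge in both groups. The Twist genes each lie beside a class IIa histone deacetylase gene. Hdac9, beside Twist1, changed by 0.0008 (SE 0.06, adjusted p = 0.994), and Hdac4, beside Twist2, by 0.03 (SE 0.08, adjusted p = 0.839). Mroh9 and Mettl11b, on either side of Prrx1, changed by 0.03 and -0.04 (adjusted p = 0.763 and 0.718), both below the background gauge. Rnf114 and Ube2v1, on either side of Snai1, changed by -0.03 each.

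Other neighbours did change. Ptges, a prostaglandin E synthase gene beside Prrx2, rose by 1.09 (SE 0.07, adjusted p = 7.96e-06), more than Prrx2 itself, while Asb6 on the other side changed by 0.07 (adjusted p = 0.531). Efcab1, beside Snai2, fell by 0.75 (SE 0.07, adjusted p = 6.99e-05), opposite to Snai2. Arhgap12, beside Zeb1, fell by 0.35 (SE 0.06, adjusted p = 0.00343) and Gtdc1, beside Zeb2, by 0.19 (SE 0.06, adjusted p = 0.0370). Eya4, beside Tcf21, rose by 0.31 (SE 0.06, adjusted p = 0.00570). Zeb2os, the antisense transcript at Zeb2, changed by 0.19 (SE 0.07, adjusted p = 0.0792) where Zeb2 rose by 0.40.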
